A study of Oryza sativa with 6 samples.

Results

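Phytochromes are the red and far-red light receptors of plants. Each is a large protein that carries a linear tetrapyrrole chromophore and switches between an inactive and an active form as it absorbs light, after which it enters the nucleus and changes transcription. Rice has 3 phytochrome genes, PHYA, PHYB and PHYC, and their products are known for acting in seedling greening, internode elongation and the timing of flowering by day length. The PHYA product is the light-labile member that responds to far-red and very weak light, the PHYB product is the main red-light receptor, and the PHYC product acts together with both.

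The 3 genes are among 17905 that the array reads with probe sets assigned to exactly 1 gene, and were chosen as those whose symbol or synonym was PHYA, PHYB or PHYC. They were read by 4 of the 22436 such probe sets. PHYA (LOC4333930 in the annotation) had 2, and PHYB (LOC4332623) and PHYC (LOC4334135) had 1 each. The arrays held RNA from young uppermost internodes, the stem segment below the panicle, of wild type rice of the cultivar Nipponbare and of coi1-13, a genotype the labels describe only as mutant. COI1 is the F-box receptor subunit for jasmonate, a hormone of defence and growth. Each genotype had 3 arrays, labelled as biological replicates 1 to 3, and the labels give neither plant age, time of harvest nor light conditions. The p-values measure the spread between these samples.

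Array medians ran from 5.54 to 5.56 on the log2 scale in wild type and were all higher in coi1-13, at 5.62 to 5.75. This gap is not small beside the phytochrome changes, and its removal is described with them. The brightest negative control of an array stood at 4.93 to 5.11 in wild type and 5.26 to 5.56 in coi1-13. All 4 phytochrome probe sets were well above it on all 6 arrays, by at least 4.97 log2 units, and all 4 were therefore measured and passed the filter on dim probe sets. The transcripts of COI1A and COI1B did not serve as a check of the labels, since neither passed the test: COI1A differed by -0.11 ± 0.04 (SE, adjusted p = 0.0582, limma) and COI1B by 0.0014 (adjusted p = 0.983).

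PHYA was slightly higher in coi1-13 by both of its probe sets, while the probe sets of PHYB and PHYC did not pass the test. The PHYA differences were 1.15-fold and 1.18-fold, the PHYB probe set was 1.05-fold lower and the PHYC probe set 1.01-fold higher. On the deposited scale 2 of the 4 probe sets were thus called higher and none lower (0 at an unadjusted p under 0.05 by limma), and the 2 belong to 1 gene. Over all 34355 tested probe sets, 16.5% were called higher and 19.4% lower, so a call of this kind was common on these arrays. Bulk RNA does not tell more transcript per cell from more cells of a type that holds the transcript.

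The brighter PHYA probe set read log2 signals of 12.12, 12.09 and 12.10 on wild type arrays 1 to 3. On the coi1-13 arrays it read 12.30, 12.28 and 12.33. The groups did not overlap, and the gap between them was wider than the spread within either. The difference was 0.20 ± 0.035 (SE, n = 3 each; adjusted p = 0.00109, limma), with a 95% interval of 0.12 to 0.28, or 14.8% more signal. Its name ends in _s_at, which the manufacturer gives to probe sets whose probes match more than 1 transcript, so signal from a related transcript is possible.

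The dimmer PHYA probe set carries no such mark. It read 10.29, 10.16 and 10.06 in wild type and 10.35, 10.34 and 10.53 in coi1-13. The coi1-13 arrays were all higher, but the highest wild type array and the lowest coi1-13 array lay close together. The difference was 0.23 ± 0.072 (SE, n = 3 each; adjusted p = 0.0277, limma), with a 95% interval of 0.074 to 0.40. This call was lost without wild type replicate 2 (adjusted p = 0.0675), without wild type replicate 3 (adjusted p = 0.104) and without coi1-13 replicate 3 (adjusted p = 0.103), while the brighter probe set stayed called in each of the 6 fits without 1 array (adjusted p from 0.00353 to 0.00557). The log2 changes of both PHYA probe sets lay within each other's intervals.

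PHYB stood at 11.02, 11.03 and 11.10 in wild type and at 10.97, 10.96 and 11.01 in coi1-13. All coi1-13 arrays were below all wild type arrays, by a narrow margin. The difference of -0.076 ± 0.043 (SE, n = 3 each) did not pass (adjusted p = 0.204, limma), and its 95% interval ran from -0.17 to 0.019. PHYC stood at 10.76, 10.81 and 10.79 in wild type and at 10.79, 10.90 and 10.74 in coi1-13. The PHYC groups overlapped, and the coi1-13 arrays were more spread out. Its difference was 0.021 ± 0.050 (SE, n = 3 each; adjusted p = 0.793, limma), with a 95% interval of -0.091 to 0.13. The groups did not overlap in 3 of the 4 phytochrome probe sets. Over all tested probe sets, 22.1% lay wholly higher in coi1-13, as both of PHYA did, and 25.4% wholly lower, as PHYB did.

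**Figure D1:**
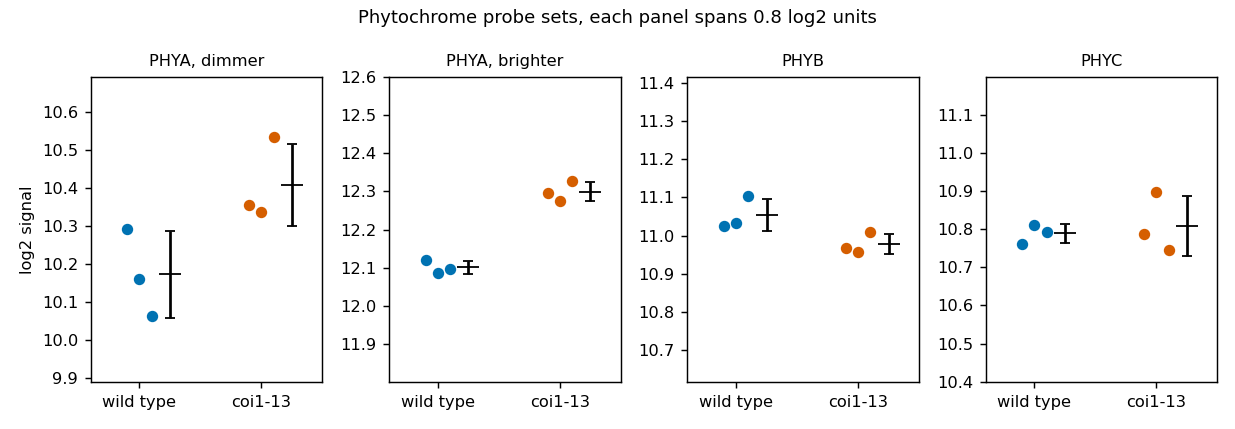
Log2 signal (y axis) of the 4 phytochrome probe sets on each array. Points are the 3 arrays of each genotype, in replicate order from left to right, and bars are the mean ± SD. Both PHYA probe sets sit higher in coi1-13, PHYB sits slightly lower and PHYC overlaps, and all panels span the same range of the log2 scale.

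The PHYA changes were of about the middle size among all tested probe sets, and those of PHYB and PHYC were small. The median size of a log2 change was 0.25 over all tested probe sets. Of these, 52.8% changed by more than the dimmer PHYA probe set and 58.6% by more than the brighter one. For PHYB and PHYC the shares were 82.6% and 95.1%. Among called probe sets alone the PHYA changes were small. There 82.2% changed by more than the dimmer PHYA probe set and 88.7% by more than the brighter one.

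Which phytochrome passed the test depended on whether the arrays were centred on their medians. When every array was centred on its median, this moved the middle of the log2 changes over the tested probe sets from -0.010 down to -0.13, and every phytochrome change fell with it. After this step neither PHYA probe set passed (0.079, adjusted p = 0.234, and 0.11, adjusted p = 0.254, limma), and PHYB was called lower (-0.20 ± 0.059, SE; adjusted p = 0.0177). In that fit 10.8% of tested probe sets were called higher and 27.7% lower. The medians that set this step, at 5.54 to 5.75, lay near the brightest negative controls, at 4.93 to 5.56, and far below the phytochrome signals. Whether an offset taken there holds at brighter signals was not tested. Quantile normalization gave nearly the deposited values, with both PHYA probe sets called higher. Relative to the median of all tested probe sets, the deposited changes were 0.21 and 0.24 for PHYA, -0.066 for PHYB and 0.031 for PHYC, and centring left these relative values as they were, as it must.

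**Figure D2:**
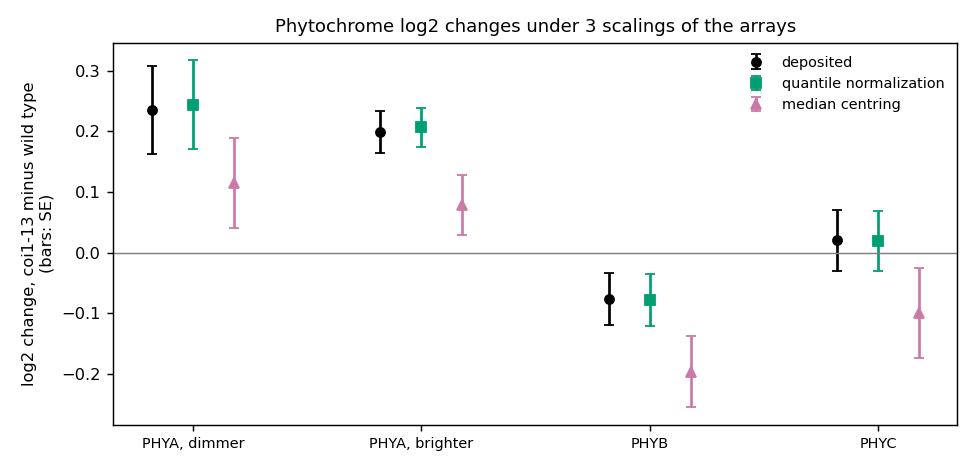
Log2 change between coi1-13 and wild type (y axis) of each phytochrome probe set on the deposited values, after quantile normalization and after median centring, with bars of 1 SE. Median centring lowers all 4 values by the same amount, which takes PHYA toward 0 and PHYB to -0.20.

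The difference between 2 genes on the same array does not depend on such scaling by a constant. Its size mixes the probes' own brightness and has no meaning, but its change between genotypes shows whether the genes changed unequally. PHYA minus PHYB, taken with the brighter PHYA probe set, was 1.09, 1.05 and 0.99 in wild type and 1.33, 1.32 and 1.32 in coi1-13. The groups were well apart, and the change was 0.28 ± 0.030 (SE, n = 3 each), or 1.21-fold. PHYA minus PHYC was 1.36, 1.27 and 1.30 in wild type and 1.51, 1.38 and 1.58 in coi1-13, a change of 0.18 ± 0.064 (SE) whose groups did not overlap either. PHYB minus PHYC was 0.26, 0.22 and 0.31 against 0.18, 0.061 and 0.26, with overlapping groups and a change of -0.097 ± 0.064 (SE). How often other pairs of genes differed as much on these arrays was not measured. Of single tested probe sets, 22.1% lay wholly higher in coi1-13 and 25.4% wholly lower, so groups apart were common.

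An exact two-sided permutation test gave p = 0.1 for the change in PHYA minus PHYB and p = 0.1 for PHYA minus PHYC, the smallest value that 3 arrays against 3 allow, and p = 0.3 for PHYB minus PHYC. Adjusted over the 3 pairs, these exact p-values were 0.15, 0.15 and 0.3, so no pair could pass. With the dimmer PHYA probe set, a choice made after seeing the data, the change against PHYB was 0.31 ± 0.10 (SE, n = 3 each; exact p = 0.1) and the groups again did not overlap. Against PHYC it was 0.21 ± 0.13 (SE, n = 3 each; exact p = 0.2), and there the groups overlapped.

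**Figure D3:**
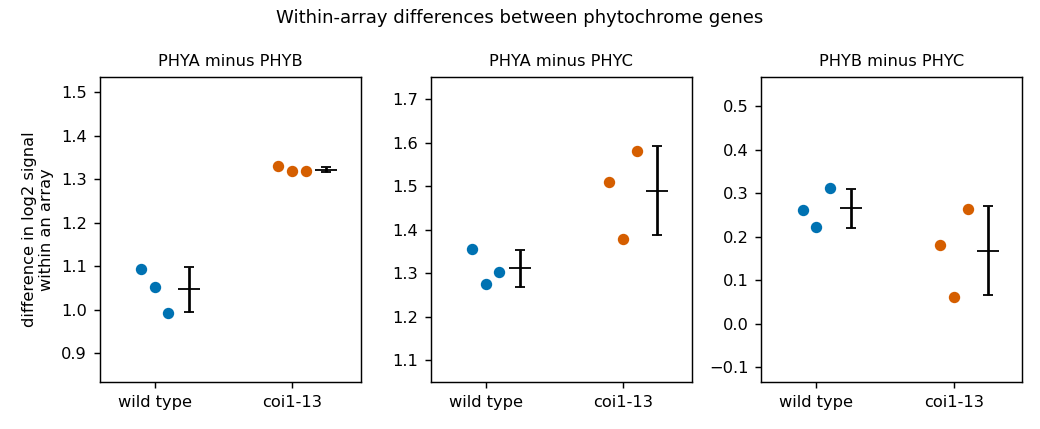
Difference in log2 signal between 2 phytochrome genes on the same array (y axis), for the 3 pairs of genes. Points are arrays and bars are the mean ± SD. PHYA minus PHYB lies between 0.99 and 1.09 in wild type and between 1.32 and 1.33 in coi1-13.

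A phytochrome protein is active only with its chromophore, and heme oxygenase makes the precursor of that chromophore from heme. SE5 (HO1) encodes this enzyme in rice, and its loss is known to make flowering insensitive to day length. SE5 read 11.50, 11.70 and 11.55 in wild type and 11.87, 11.95 and 12.02 in coi1-13. All coi1-13 arrays were higher, and SE5 rose by 0.36 ± 0.058 (SE, n = 3 each; adjusted p = 0.000639, limma), or 1.29-fold. This call was kept after median centring, at 0.24 (adjusted p = 0.00743). HO2, a second heme oxygenase family gene, differed by 0.029 ± 0.070 (SE) and did not pass (adjusted p = 0.794).

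The phototropins are blue light receptors of another family, which steer bending toward light and chloroplast movement. PHOT2 read 10.96, 10.93 and 10.94 in wild type and 11.54, 11.52 and 11.49 in coi1-13, with very little spread in either group. It rose 1.49-fold, by 0.57 ± 0.039 (SE, n = 3 each; adjusted p = 1.3e-06, limma). PHOT1A differed by 0.12 ± 0.084 (SE) and did not pass (adjusted p = 0.302). Without wild type replicate 1 PHOT1A was called higher, by 0.22 (adjusted p = 0.0354).

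GIGANTEA (GI), a clock-controlled protein, and Hd1, the rice counterpart of CONSTANS, act in the timing of flowering by day length. Hd1 regulates the florigen gene Hd3a. GI read 13.04, 13.07 and 13.06 in wild type and 13.58, 13.57 and 13.64 in coi1-13. It rose 1.46-fold, by 0.54 ± 0.033 (SE, n = 3 each; adjusted p = 5.3e-07, limma), and the groups were far apart relative to their spread. MADS50, a MADS-box activator of flowering, rose from 7.81 ± 0.067 to 8.51 ± 0.082 (SD, n = 3 each), or 1.63-fold (adjusted p = 0.000187). Hd1 rose from 6.68 ± 0.14 to 7.28 ± 0.098 (SD, n = 3 each; adjusted p = 0.0112), and DTH7 (PRR37), a pseudo-response regulator that delays heading in long days, rose by 0.25 ± 0.056 (SE; adjusted p = 0.0055). A second, dimmer DTH7 probe set rose by 0.55 (adjusted p = 0.0101). After median centring the calls of GI, MADS50 and Hd1 were kept, at 0.42, 0.58 and 0.47, while that of DTH7 was lost (0.13, adjusted p = 0.247).

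The remaining flowering genes are named after their values were seen. Hd3a was at most weakly detected, at 5.90 ± 0.50 (SD, n = 3) on the wild type arrays and 6.01 ± 0.54 (SD, n = 3) on those of coi1-13, and a difference could not be shown at that spread (adjusted p = 0.847, limma). Ehd3 and Ehd4, promoters of flowering, differed by -0.044 and -0.041, and Hd16, a casein kinase gene, by 0.077. DTH8, a NF-Y subunit gene, differed by -0.53 ± 0.25 (SE; adjusted p = 0.124), with 2 of 3 coi1-13 arrays above the negative controls. LFL1 stayed at or below the brightest negative control on all 6 arrays and was not tested.

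Taken as a list, 13 light signalling genes other than the phytochromes were tested: 6 were called higher, none lower and 7 did not pass (by limma at an unadjusted p under 0.05, 0 were lower). Over the 16706 genes tested with 1 probe set each, 21.2% were called higher and 26.7% lower. The list's median log2 change was 0.12, against -0.042 over all these genes. After median centring 5 of the list were called higher and 0 lower, against 10.8% and 27.7% of all tested probe sets. These shares are not over 1 probe set per gene, as the list is, so they are not like for like. On the deposited values the shares over all tested probe sets were 16.5% higher and 19.4% lower, both below the shares over genes. The list was chosen with earlier results of these data known, so these counts carry no test. Of the 134 symbols in the list, 30 matched a gene name of the annotation, 1 of them wrongly. Cryptochromes, phytochrome-interacting factors, COP1, HY5 and B-box factors were among those not matched and were not analysed here.

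**Figure D4:**
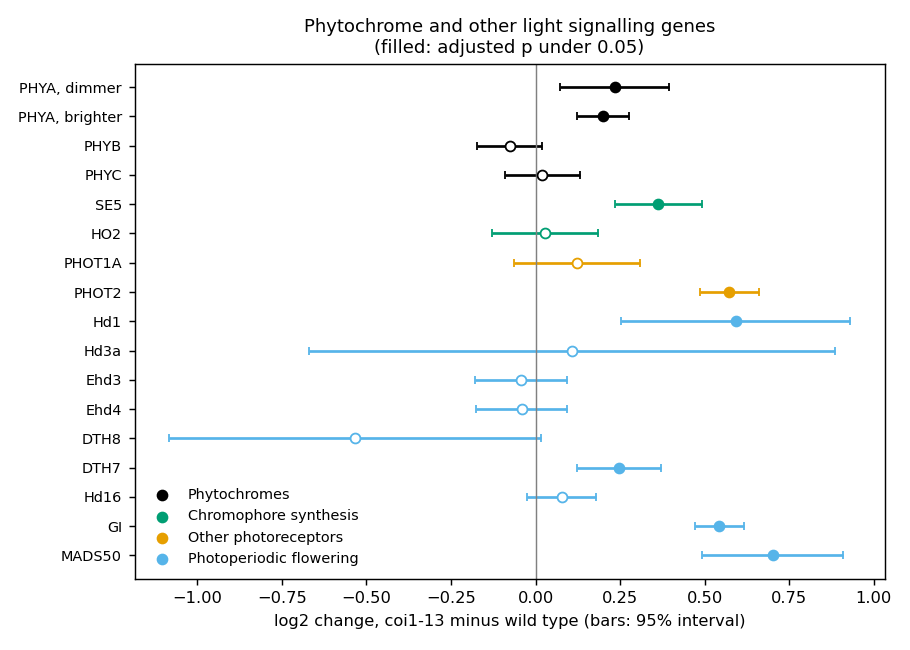
Log2 change between coi1-13 and wild type (x axis) with its 95% interval for the 4 phytochrome probe sets and the 13 other light signalling genes tested. Filled points passed at an adjusted p under 0.05. SE5, PHOT2, GI, MADS50, Hd1 and, by little, DTH7 lie further right than both PHYA probe sets.

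Markers of leaf, of panicle and anther, and of stem, the organ sampled, differed between the same arrays. Their counts are to be read against the 21.2% of all genes called higher and the 26.7% called lower. Of 7 tested leaf genes 3 were called higher, 1 lower and 3 did not pass, with a median log2 change of -0.035. Their summed signal, over 8 genes, was 62539 to 64226 in wild type and 71989 to 74370 in coi1-13. Such a sum weights each gene by the brightness of its probes. Within this list RBCS, LIR1 and PSAH rose by 0.43, 0.56 and 0.51 on the log2 scale. CAB2R, RCA and PORB did not pass, and the chlorophyll synthesis gene PORA fell by 0.78. RBCS1 did not exceed the negative controls anywhere. Of 15 panicle and anther genes 11 were called lower, 1 higher and 3 did not pass, with a median of -0.21. Their summed signal was 61865 to 64263 in wild type and 53249 to 56570 in coi1-13. None of these genes was below the negative controls on all arrays. In wild type RTS and C6 had mean log2 signals of 14.40 and 13.85, brighter than any phytochrome probe set. CYP703A3, PTC1 and EAT1 were 8.22-fold, 3.69-fold and 2.28-fold lower in coi1-13, far larger changes than that of PHYA. The other called genes of this list changed less, and MADS3 was 1.21-fold higher. Whether the samples held panicle or anther tissue was not tested. Of 8 genes of stem meristem and secondary wall 6 were called lower and 2 higher, and all 8 were above the negative controls on every array. The stem genes had a median of -0.33 and a summed signal of 27192 to 28700 in wild type and 22061 to 23356 in coi1-13. The part of tissue make-up in the PHYA, SE5 and PHOT2 differences was not tested.

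Among 2881 other tested probe sets of named genes, the values most like those of the brighter PHYA probe set over the 6 arrays belonged to GLT2, a glutamate synthase gene (Pearson's r = 0.998), ORC4, a gene of the origin recognition complex (r = 0.997), and PDS, the phytoene desaturase gene of carotenoid synthesis (r = 0.997). All 3 were higher in coi1-13, PDS by 0.26. For PHYA, 558 probe sets reached r over 0.9. For PHYB there were 51, led by MIF3 (r = 0.984), LKHA4 (r = 0.981) and the TCP factor gene PCF5 (r = 0.972), all lower in coi1-13 without passing the test. For PHYC there were 9, led by the iron transporter gene IRT2 (r = 0.951), the heat shock factor gene HSF06 (r = 0.950) and the osmotic kinase gene SAPK3 (r = 0.946), none of which passed. IRT2 was dim, above the negative controls on 2 wild type arrays and 1 coi1-13 array. These values describe 6 arrays that share 2 genotypes and carry no test.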

How the data were processed

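Biotin-labelled cRNA was read on Affymetrix arrays, per the labels' protocols. The authors deposited log2 signals for 57381 probe sets on 6 arrays, made with GCOS 1.4 per the submitters' processing notes. As powers of 2 they had a mean of about 500 on every array after trimming 2% at each end. Probe sets were named through the platform annotation and a RefSeq gene table (ASM3414082v1), used for names and gene order only, and 22436 had exactly 1 gene. No sequence was used.

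The test was limma 3.58.1 (R 4.3.3; lmFit, eBayes with trend, no block) on the deposited log2 values. It covered 34355 probe sets, the brightest 60% by their mean, with Benjamini-Hochberg adjustment over all of them and calls at an adjusted p under 0.05. Intervals are at 95%. The brightest probe set stood for a gene in lists. Negative controls were 33 probe sets for tags, a fungus and a bacterial tryptophan gene. Exact permutation tests used scipy 1.17.1. On data simulated for this comparison over 34355 probe sets, 68 of 100 changed 2-fold and 42 of 100 changed 1.41-fold were recovered, with 4 false calls. Far fewer probe sets were changed there than were called in the data, so these shares do not give the recovery here. No change as small as that of PHYA was simulated.

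Named were all phytochrome probe sets, COI1A and COI1B, up to 4 genes with the smallest p per light signalling list, and the 3 most alike named genes per phytochrome. The members and lists were chosen with earlier results of these data known. REP1, which in this annotation names a peptidase gene, was removed from the list. The use of the dimmer PHYA probe set in the within-array differences was added after seeing the data. Same-numbered arrays of the 2 genotypes did not deviate together (r of -0.0029, 0.0011 and 0.0004).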

Additional observations from a re-analysis of the deposited data

How the results depend on the processing

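With 3 arrays per group, changes as small as those of the phytochrome genes rest on a small spread (SE of 0.035 to 0.072). Median centring moved the changes by more than that, and quantile normalization by little. Under median centring 0 phytochrome probe sets were higher and 1 lower, with changes of 0.079 and 0.11 for PHYA, -0.20 for PHYB (now called) and -0.099 for PHYC (adjusted p = 0.322, reversed in sign). There 3721 probe sets of the whole array were higher, against 5679, and HO2, Hd3a and Hd16 reversed without passing, at -0.091, -0.012 and -0.043. Without the variance trend the dimmer PHYA probe set kept its change of 0.23 but not its call (adjusted p = 0.112), which left 1 phytochrome probe set called higher, and 1 light signalling gene, DTH8, was called lower. The cause was not tested in either case. With 1 array left out, 1 to 2 phytochrome probe sets were higher and 0 lower. Their changes ran from 0.17 to 0.29 for the dimmer PHYA probe set, from 0.19 to 0.21 for the brighter one, from -0.092 to -0.052 for PHYB and from -0.023 (without coi1-13 replicate 2) to 0.053 for PHYC. The within-array change ran from 0.25 to 0.30 for PHYA minus PHYB, from 0.13 to 0.23 for PHYA minus PHYC and from -0.14 to -0.043 for PHYB minus PHYC. HO2 ran from -0.027 to 0.096, Hd3a from -0.18 to 0.42 and Ehd4 from -0.085 to 0.015, so none of these had a settled sign. With the replicate number as a block, 2 phytochrome probe sets were higher and 0 lower (adjusted p = 0.0451 and 0.00356 for PHYA, 0.244 for PHYB and 0.799 for PHYC), 6 light signalling genes were higher, and 5481 probe sets were higher and 6336 lower on the whole array. The block changed no call of a phytochrome probe set or light signalling gene, and the numbers did not pair the arrays. Quantile normalization, no filter and the upper 40% by mean signal changed no call of a phytochrome probe set.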

Other observations

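The genes beside each phytochrome gene in the RefSeq gene order were read for context, over 5 protein-coding genes on either side. Over all genes tested with 1 probe set each, 21.2% were called higher and 26.7% lower, and with so few neighbours nothing is read from their counts. Around PHYA, 7 neighbours were tested, of which 2 were higher in coi1-13, 1 lower and 4 did not pass. Around PHYB, 5 were tested, of which 1 was lower and 4 did not pass. Around PHYC, 6 were tested, of which 3 were higher and 3 did not pass. One of the PHYC neighbours is MADS14 (AGL10), a flowering gene of the APETALA1 family, named after its values were seen. It rose by 0.40, while PHYC itself did not pass.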
